A study of Mus musculus with 18 samples.

Results

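The 9 enzymes that carry sterol synthesis from farnesyl diphosphate through squalene to cholesterol were compared between wild-type (WT) and *Gpr180*KO mouse livers. They were chosen by name as *Fdft1*, *Sqle*, *Lss*, *Cyp51*, *Nsdhl*, *Hsd17b7*, *Ebp*, *Sc5d* and *Dhcr7*, in the order of the steps, and are 9 of the 23352 gene symbols in the tables. All 9 were found once in each table, with an estimate marked as good in all 18 livers, and all 9 passed the minimum of a mean of 1 FPKM (fragments per kilobase of transcript and per number of mapped reads). The livers came from male mice aged 20 weeks that were fed a high fat diet (HFD), 9 WT and 9 *Gpr180*KO, with 1 library per mouse. *Gpr180*KO mice carry in every tissue a CRISPR/Cas9 deletion of an internal exon of *Gpr180*, which codes for a membrane protein, and were made in C57BL/6J eggs and backcrossed before homozygous and WT mice were bred. Mice are named by their titles. Titles came in 2 styles, called here series 1 (4 mice per genotype, such as W317HFD and KO319HFD) and series 2 (5 per genotype, such as WThfd131 and KOhfd51), and what the styles stand for is not given in the sources used here.

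Cholesterol is built in the endoplasmic reticulum, and the liver is a main site of its synthesis. Squalene synthase, encoded by *Fdft1*, commits farnesyl diphosphate to sterols, and squalene epoxidase (*Sqle*) and lanosterol synthase (*Lss*) turn the linear squalene into the first sterol. *Cyp51*, *Nsdhl* and *Hsd17b7* then act in the removal of methyl groups from lanosterol, and *Ebp*, *Sc5d* and *Dhcr7* move and set the double bonds of the sterol rings to give cholesterol. As background, the genes of this route are known targets of SREBP2, a transcription factor released from its membrane when sterols are low, which acts at promoters together with NF-Y and Sp1.

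The promoter stretches of *Lss*, *Cyp51* and *Nsdhl*, which were called lower in *Gpr180*KO livers with all 18 livers and with each left out, are shown beside that of *Ebp*, which was not called. Each holds the 120 bases before the start given by RefSeq (GRCm38.p6), 5′ to 3′ on the strand of the gene, with the letters CCAAT, the core of an NF-Y site, or their complement ATTGG in capitals. The stretch of *Lss* is chr10:76531485-76531604 on the plus strand, that of *Cyp51* is chr5:4104698-4104817 on the minus strand, that of *Nsdhl* is chrX:72918401-72918520 on the plus strand and that of *Ebp* is chrX:8193513-8193632 on the minus strand.
*Lss*: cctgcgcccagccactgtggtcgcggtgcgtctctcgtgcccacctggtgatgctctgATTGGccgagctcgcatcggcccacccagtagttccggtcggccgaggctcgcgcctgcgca
*Cyp51*: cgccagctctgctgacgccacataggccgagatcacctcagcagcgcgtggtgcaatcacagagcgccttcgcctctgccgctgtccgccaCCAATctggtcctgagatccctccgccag
*Nsdhl*: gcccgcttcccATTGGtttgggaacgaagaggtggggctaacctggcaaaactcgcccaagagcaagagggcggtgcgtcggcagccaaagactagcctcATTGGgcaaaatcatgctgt
*Ebp*: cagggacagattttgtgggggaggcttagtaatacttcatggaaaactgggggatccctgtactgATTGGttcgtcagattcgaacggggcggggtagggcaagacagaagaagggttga
In these stretches the first base of the box lay 62 bases before the start in *Lss*, 29 in *Cyp51*, 109 and 20 in *Nsdhl* and 55 in *Ebp*. Windows of 250 bases before to 50 after a start were found for 7 of the 9 enzymes, all but *Fdft1* and *Sqle*, and *Dhcr7* had 3 starts, so that there were 9 windows. CCAAT, on either strand, was in 7 of these 9 windows and in 37.4% of all 32851 windows of the table. The Sp1 letters GGGCGG were in 8 of 9 windows against 35.7% of all, and the E-box CACGTG was in 3 of 9 against 7.15%. One form of the sterol regulatory element, TCACNCCAC, was in 0 of 9 windows and in 1.24% of all. All were searched on both strands, none contains another, and binding was not measured. All 7 enzymes with a window, *Ebp* included, held both CCAAT and GGGCGG in at least 1 window.

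*Gpr180*, the targeted gene, was 6.79 ± 1.99 FPKM (SD, n = 9) in WT and 1.602 ± 0.371 in *Gpr180*KO livers, with no overlap between the groups (log2 difference -1.998, limma adjusted p = 4.74e-06). Sums of FPKM per library ranged from 554796.5 to 718746.1, and estimated relative depth lay between 44.3% (KO319HFD) and 100% of that of W317HFD. A pair of livers stand apart in the results that follow. KOhfd51 had the highest sum, with the next at 629067.2 (KO319HFD), and the lowest median correlation with the other libraries (0.920 against 0.948 to 0.963). WThfd134 was lowest of the WT livers in 8 of the 9 enzymes. Where leaving out either changed the call of an enzyme or of a ratio, the value without it is given too. For genes other than the 9 enzymes, no difference without either liver is given.

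Of the 9 enzymes, 7 were lower in *Gpr180*KO livers and none was higher by limma with an adjusted p under 0.05, and 8 were lower and none higher at an unadjusted p under 0.05, which 19.6% of all 10835 genes tested passed in the lower and 2.54% in the higher direction. *Sqle* fell most, to 31.2% of the WT mean, then *Cyp51* (48.3%), *Nsdhl* (48.9%), *Lss* (50.1%), *Hsd17b7* (55.5%), *Dhcr7* (58.3%) and *Sc5d* (73.0%). *Fdft1*, at 63.5%, did not pass the test, and *Ebp* was at 107%. By the adjusted p, 4.28% of all genes tested were called lower and 0.452% higher. The median log2 difference (*Gpr180*KO minus WT) was -0.80 over the 9 enzymes and -0.13 over all genes tested, so that relative to the median gene the enzymes lay between -1.501 (*Sqle*) and 0.22 (*Ebp*). These calls are on FPKM as deposited. With median-of-ratios scaling between libraries the median gene moved to 0.02 and the split of all calls from 464 lower and 49 higher to 147 lower and 146 higher. Under that scaling 1.36% of genes were called lower, and among the enzymes 4 were: *Sqle* (-1.48, adjusted p = 0.00583), *Cyp51* (-0.83, 0.0201), *Nsdhl* (-0.83, 0.0256) and *Lss* (-0.80, 0.0263). The call was lost for *Hsd17b7* (-0.65, adjusted p = 0.0860), *Dhcr7* (-0.59, 0.0677) and *Sc5d* (-0.28, 0.194). When each liver was left out in turn, between 4 and 8 of the 9 enzymes were called. The count was 4 without W317HFD, W318HFD, WThfd133, KOhfd53 or KOhfd54, and 8 without WThfd134 or KOhfd51. Calls over all 10835 genes moved as well, from the 464 lower with no liver left out. They were 146 without W317HFD or W318HFD, 116 without WThfd133, 176 without KOhfd53 and 200 without KOhfd54. Without WThfd134 they were 448, and without KOhfd51 689. They were most without WThfd157, at 844, where 7 enzymes were called.

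In bulk liver RNA, fewer cells of a type and less RNA per cell cannot be told apart, so marker genes were counted beside the enzymes. Of 10 hepatocyte markers none was called by limma, with 0 lower and 2 higher at an unadjusted p under 0.05. With median-of-ratios scaling 1 was called higher (*Pck1*, 0.86, adjusted p = 0.0471) and 5 were higher at an unadjusted p under 0.05. Over all genes tested 2.54% were higher at that unadjusted p as deposited and 9.85% with median-of-ratios scaling. Under that scaling 146 of the 10835 genes were called higher. FPKM of the hepatocyte markers summed to between 18958.5 and 23331.9 in WT and between 21139.9 and 33834 in *Gpr180*KO livers. Without KOhfd51 the highest *Gpr180*KO sum was 24052. Of 8 stellate cell markers, 5 were called lower (*Col1a1*, *Col1a2*, *Col3a1*, *Dcn* and *Pdgfrb*), also with median-of-ratios scaling. The other markers, *Lrat* (-0.31, adjusted p = 0.446), *Reln* (-0.56, 0.0657) and *Des* (-0.08, 0.812), were not called. Sums over all 8 were 143 to 287 and 79.6 to 145 FPKM. Most of this was *Dcn*, with means of 144 FPKM in WT and 89.7 in *Gpr180*KO livers. Over all genes tested 4.28% were called lower, and 1.36% with median-of-ratios scaling. Of 5 cholangiocyte markers, 2 passed the minimum and both were lower, *Sox9* and *Spp1*, with sums over all 5 of 40.8 to 226 and 17.4 to 51.0 FPKM. These sums were mostly *Spp1*, with means of 133 FPKM in WT and 30.4 in *Gpr180*KO livers, against 1.44 and 0.859 for *Sox9*. With median-of-ratios scaling *Spp1* was called and *Sox9* was not (adjusted p = 0.137). Of 8 macrophage markers, 1 was lower (*Cd68*), with sums of 205 to 467 and 240 to 332 FPKM. None of 7 endothelial markers was called, also without adjustment, and of 7 lymphocyte markers the single one tested was not called, with an unadjusted p under 0.05. Of 10 tested genes of the circadian clock none was called, and 2 were lower at an unadjusted p under 0.05, a share close to the 19.6% of all genes. The part of these markers in the levels of the enzymes was not tested. In WThfd134 the macrophage markers summed to 467 FPKM, the highest of the WT livers, and the hepatocyte (18958.5), cholangiocyte (40.8) and clock genes (83.0) to the lowest.

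**Figure D1:**
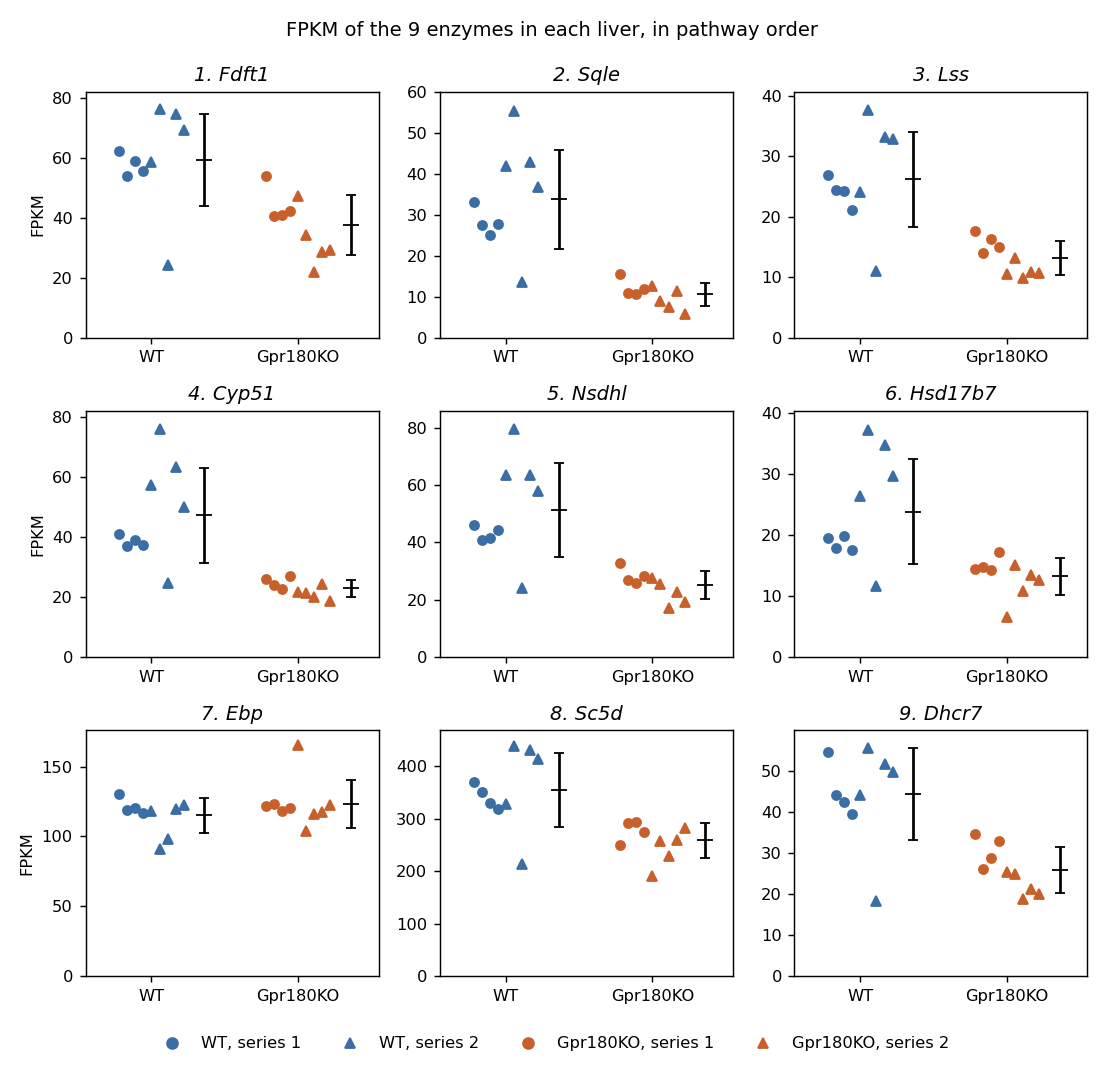
FPKM (vertical axis, from 0) of each enzyme in 9 WT (blue) and 9 *Gpr180*KO (orange) livers, in the order of the steps. Circles are livers of series 1 and triangles of series 2, and the black bar beside each group is its mean ± SD. In all panels but that of *Ebp*, WThfd134 is the one WT triangle that lies within or below the *Gpr180*KO range.

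In all enzymes but *Ebp*, all 9 *Gpr180*KO livers lay below the WT mean, and the groups met through a single WT liver. WThfd134 was the only WT liver below the highest *Gpr180*KO liver in each of these 8 enzymes, and for *Dhcr7* it was below all 9 of them. In none of the 9 did all *Gpr180*KO livers lie below all WT livers, a pattern that 0.175% of the genes tested showed. How many of all genes lay wholly below the WT mean, or met through a single WT liver, was not counted.

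*Fdft1* (mm10 chr14:63145150-63177793, as in the tables) makes squalene. It was 59.4 ± 15.4 FPKM in WT livers, with a lowest value of 24.4, a median of 58.9 and a highest of 76.3. In *Gpr180*KO livers it was 37.7 ± 10.03 FPKM (lowest 22.0, median 40.6, highest 54.0). Without WThfd134, the lowest WT value was 54.1, close to the 54.0 of KO319HFD, the highest *Gpr180*KO liver. The log2 difference was -0.64 (SE 0.20, 95% interval -1.05 to -0.23), and with an adjusted p of 0.0613 it was not called. It was called in 3 of the 18 fits with a liver left out, those without WThfd134 (-0.79, adjusted p = 0.00783), KO319HFD (-0.71, 0.0412) and KOhfd51 (-0.69, 0.0484).

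*Sqle* (chr15:59315092-59331193) oxidizes squalene and is a control point of sterol synthesis. In WT livers of series 1 it was 33.0 FPKM in W317HFD, 27.5 in W318HFD, 25.1 in W319HFD and 27.8 in W320HFD. In WT livers of series 2 it was 41.8 in WThfd131, 55.3 in WThfd133, 13.5 in WThfd134, 42.9 in WThfd156 and 36.8 in WThfd157. In *Gpr180*KO livers it was 15.6, 10.9, 10.6 and 11.7 FPKM in KO319HFD, KO320HFD, KO321HFD and KO322HFD, and 12.48, 8.90, 7.52, 11.5 and 5.66 in KOhfd51, KOhfd52, KOhfd53, KOhfd54 and KOhfd56. Apart from WThfd134, the lowest WT liver was thus above the highest *Gpr180*KO liver (25.1 against 15.6 FPKM), and 8 of 9 *Gpr180*KO livers were below WThfd134 too. The means were 33.8 ± 12.1 and 10.5 ± 2.89 FPKM, with a log2 difference of -1.63 (SE 0.22, 95% interval -2.09 to -1.17, adjusted p = 0.00157). Its p was the third lowest of the 10835 genes, and it was called in all 18 fits with a liver left out (-1.78 to -1.52).

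*Lss* (chr10:76531627-76553934), which closes the rings to lanosterol, was 26.2 ± 7.88 FPKM in WT livers (lowest 11.0, median 24.5, highest 37.8) and 13.1 ± 2.83 in *Gpr180*KO livers (lowest 9.88, median 13.2, highest 17.7). Of the *Gpr180*KO livers, 4 were below WThfd134 and all were below the other WT livers, of which W320HFD was lowest at 21.2. It fell by 0.95 on the log2 scale (SE 0.19, adjusted p = 0.0132), and was called in all 18 fits with a liver left out.

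*Cyp51* (chr5:4080674-4104697), the P450 enzyme that takes the first methyl group from lanosterol, was 47.2 ± 15.9 FPKM in WT livers (lowest 24.7, median 40.8, highest 75.9) and 22.8 ± 2.75 in *Gpr180*KO livers (lowest 18.5, median 22.6, highest 26.9). Over both series the *Gpr180*KO livers were closer together, with a coefficient of variation of 12.1% against 33.6% in WT. The same held within series 2 (9.93% against 35.2%), which holds WThfd133 and WThfd134. Within series 1 the WT livers were the closer group, with 4.599% against 7.86% in *Gpr180*KO livers. The log2 difference was -0.98 (SE 0.16, adjusted p = 0.00637), and 7 *Gpr180*KO livers were below WThfd134.

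*Nsdhl* (chrX:72918521-72958528), the dehydrogenase that acts in removing the next methyl groups, was 51.2 ± 16.4 FPKM in WT livers (lowest 24.2, median 46.0, highest 79.4). In *Gpr180*KO livers it was 25.1 ± 4.87 (lowest 16.95, median 25.7, highest 32.9). It fell by 0.98 on the log2 scale (SE 0.18, adjusted p = 0.0112), the same to 2 decimals as *Cyp51*. Both were called in all 18 fits with a liver left out.

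*Hsd17b7* (chr1:169949537-169969205), the ketoreductase of the same reactions, was 23.8 ± 8.66 FPKM in WT livers (lowest 11.6, median 19.9, highest 37.3) and 13.2 ± 3.05 in *Gpr180*KO livers (lowest 6.54, median 14.3, highest 17.1). The WT liver next above WThfd134 was W320HFD at 17.6 FPKM, and KO322HFD was at 17.1. The log2 difference was -0.80 (SE 0.21, adjusted p = 0.0346). The call was kept in 10 of 18 fits with a liver left out, and was lost without W317HFD, W318HFD, WThfd131, WThfd133, WThfd156, KOhfd52, KOhfd53 or KOhfd54 (adjusted p = 0.0525 to 0.0787). The lowest *Gpr180*KO value was that of KOhfd51, without which the difference was -0.68 (adjusted p = 0.0391).

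*Ebp* (chrX:8185331-8193512), the isomerase that shifts a double bond within the sterol rings, did not pass the test. It was 115 ± 12.51 FPKM in WT livers (lowest 90.7, median 119, highest 131) and 123 ± 16.9 in *Gpr180*KO livers (lowest 104, median 120, highest 165). The log2 difference was 0.09 (SE 0.09, adjusted p = 0.525), with a 95% interval of -0.09 to 0.27, which holds none of the log2 differences of the other 8 enzymes. Without KOhfd51, the highest liver, it was 0.04 (adjusted p = 0.757). The lowest was WThfd133, which was the highest WT liver of all other enzymes.

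*Sc5d* (chr9:42254177-42264300), the desaturase of the next step, was 355 ± 70.1 FPKM in WT livers (lowest 213, median 350, highest 438) and 259 ± 32.7 in *Gpr180*KO livers (lowest 192, median 260, highest 294). All WT livers but WThfd134 were at 317.8 FPKM or more, above all *Gpr180*KO livers. The log2 difference was -0.44 (SE 0.12, adjusted p = 0.0428). The call was kept in 5 of 18 fits with a liver left out, those without WThfd134 (-0.53, adjusted p = 0.00712), WThfd157, KO320HFD, KO321HFD or KOhfd51, and in the other 13 the adjusted p was 0.0528 to 0.0951.

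*Dhcr7* (chr7:143823167-143848410), the reductase that gives cholesterol, was 44.4 ± 11.2 FPKM in WT livers (lowest 18.4, median 44.1, highest 55.4) and 25.9 ± 5.53 in *Gpr180*KO livers (lowest 18.7, median 25.5, highest 34.6). WThfd134 was the lowest of all 18 livers, and the other WT livers began at 39.4 FPKM. The log2 difference was -0.75 (SE 0.18, adjusted p = 0.0257). It was called in 13 of 18 fits with a liver left out, with -0.90 (adjusted p = 0.000572) without WThfd134, and was lost without W317HFD, W318HFD, WThfd133, KOhfd53 or KOhfd54 (adjusted p = 0.0501 to 0.0635).

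**Figure D2:**
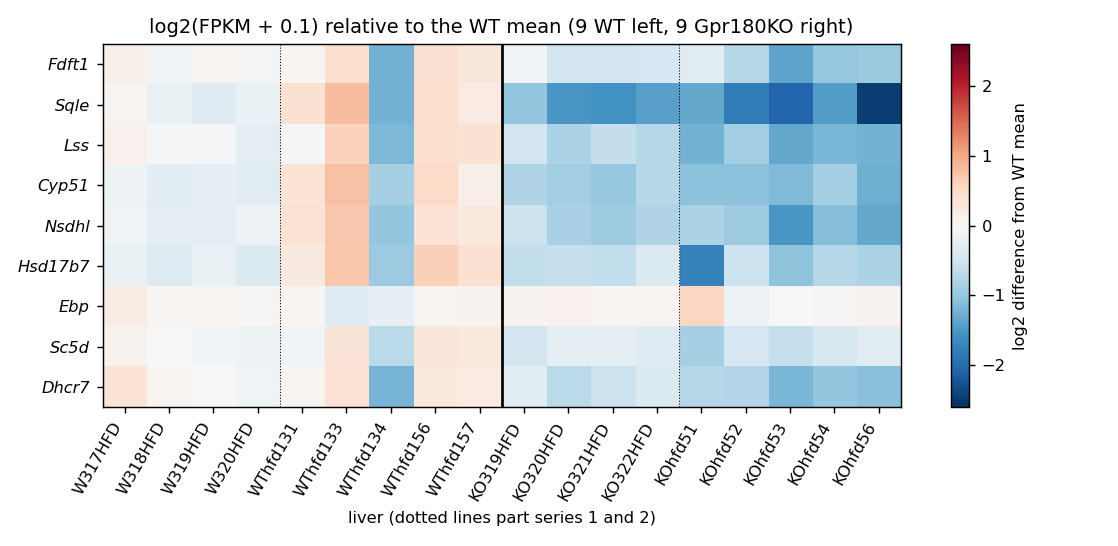
Log2(FPKM + 0.1) of each enzyme (rows, in the order of the steps) in each liver (columns, 9 WT left of the black line and 9 *Gpr180*KO right of it) minus the WT mean of that enzyme, with blue for lower and red for higher. WThfd134 is the bluest WT column, WThfd133 is the reddest, and the row of *Ebp* is pale in most livers.

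In WT livers the same mice were highest and lowest for nearly all enzymes. WThfd133 was the highest WT liver for the 8 enzymes other than *Ebp*, and WThfd134 was the lowest for the same 8. WThfd156 was among the 2 highest for 6 enzymes. In *Gpr180*KO livers KO319HFD, the library of lowest estimated depth, was highest for *Fdft1*, *Sqle*, *Lss*, *Nsdhl* and *Dhcr7*. KOhfd53 was among the 2 lowest for all 9. The SD within WT was larger in series 2, which holds WThfd133 and WThfd134, than in series 1 for all 9 enzymes. *Cyp51*, for example, was 54.2 ± 19.0 FPKM (n = 5) in series 2 and 38.4 ± 1.77 (n = 4) in series 1.

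Per length, the enzymes were not equally abundant. In WT livers the order of mean FPKM was *Sc5d*, *Ebp*, *Fdft1*, *Nsdhl*, *Cyp51*, *Dhcr7*, *Sqle*, *Lss* and *Hsd17b7*. *Sc5d* was above *Ebp* and *Ebp* above *Fdft1* in all 9 livers with no overlap of their ranges, while the ranges of all lower neighbours overlapped. *Cyp51* was above *Dhcr7* in only 5 of 9 WT livers. In *Gpr180*KO livers the order was *Sc5d*, *Ebp*, *Fdft1*, *Dhcr7*, *Nsdhl*, *Cyp51*, *Hsd17b7*, *Lss* and *Sqle*. There the gaps below *Sc5d*, *Ebp* and *Cyp51* were free of overlap, and *Sqle*, seventh in WT, was last, although above *Lss* in 2 of 9 livers. The 9 enzymes together summed to 756 ± 152 FPKM in WT and 530 ± 42.4 in *Gpr180*KO livers. Of that sum *Sc5d* held 47.0% ± 1.72 in WT and 48.8% ± 4.99 in *Gpr180*KO livers, *Ebp* 15.8% ± 3.49 and 23.4% ± 3.82, and *Sqle* 4.35% ± 0.880 and 1.98% ± 0.480.

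Ratios of each enzyme to the one before it were taken within each liver, since such a ratio does not depend on the scaling between libraries. All 8 ratios were tested two-sided with exact permutation over the 48620 ways to divide 18 livers into 9 and 9, for which the smallest p is 4.11e-05, and adjusted by Benjamini-Hochberg over the 8. *Sqle* relative to *Fdft1* was 0.556 (geometric mean, 0.428 to 0.725) in WT and 0.281 (0.196 to 0.401) in *Gpr180*KO livers, so that no liver of one genotype reached the other (log2 difference -0.99, adjusted exact p = 0.000329). WThfd134, low in both enzymes, was thus within the WT range. *Lss* relative to *Sqle* was 0.790 in WT (0.578 to 0.966) and 1.26 in *Gpr180*KO livers (0.846 to 1.86), a log2 difference of 0.68 (adjusted exact p = 0.000905). *Sqle* therefore differed between genotypes more than both of its neighbours did.

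At the next steps no ratio passed the test. *Cyp51* to *Lss* was 1.80 and 1.76 (log2 difference -0.03, adjusted exact p = 0.879), *Nsdhl* to *Cyp51* was 1.09 in both genotypes (0.00, 0.995), and *Hsd17b7* to *Nsdhl* was 0.461 and 0.523 (0.18, 0.388). The last of these was called without KOhfd51 (0.32, adjusted exact p = 0.00428). *Ebp* relative to *Hsd17b7* was 5.09 (2.43 to 8.41) in WT and 9.46 (6.80 to 24.9) in *Gpr180*KO livers (0.90, adjusted exact p = 0.000905). *Sc5d* relative to *Ebp* was 3.03 (2.17 to 4.82) and 2.10 (1.16 to 2.49) (-0.53, adjusted exact p = 0.000905). Both moved in all 9 *Gpr180*KO livers to the same side of the WT mean. Both calls were kept whichever liver was left out, with 0.72 for *Ebp* to *Hsd17b7* (adjusted exact p = 0.00428) and -0.42 for *Sc5d* to *Ebp* (0.00362) without KOhfd51. Within the series *Ebp* to *Hsd17b7* was 0.30 in series 1 (adjusted exact p = 0.0571) and 1.37 in series 2 (0.0423). *Sc5d* to *Ebp* was -0.29 (0.0571) and -0.72 (0.0635), and passed in neither series. In series 1, 4 against 4 allows no exact p below 0.0286, and 0.0571 was the lowest adjusted p there. Not passing in series 1 is thus no sign of a lack of difference. *Dhcr7* to *Sc5d* was 0.123 and 0.0991 (-0.31, adjusted exact p = 0.0539), and was called without WThfd134 (-0.37, 0.0147), KO319HFD (-0.37, 0.0184), KO322HFD (-0.34, 0.0388) or KOhfd51 (-0.36, 0.0196).

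**Figure D3:**
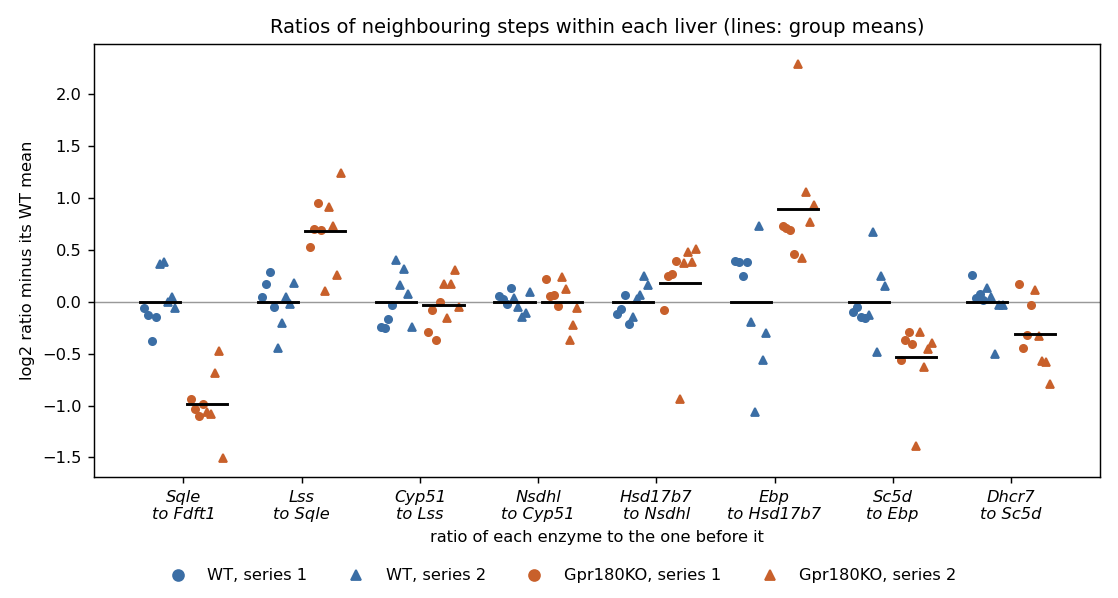
Log2 ratio of each enzyme to the one before it in each liver, minus the WT mean of that ratio (vertical axis), for 9 WT (blue) and 9 *Gpr180*KO (orange) livers, with circles for series 1, triangles for series 2 and lines for group means. The groups part without overlap for *Sqle* to *Fdft1* and shift for *Lss* to *Sqle*, *Ebp* to *Hsd17b7* and *Sc5d* to *Ebp*.

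Both series held both genotypes, so that each enzyme was also compared within a series. In series 1 alone the log2 difference was -1.22 for *Sqle* (adjusted p = 0.00885) and between -0.63 and -0.30 for *Lss*, *Cyp51*, *Nsdhl*, *Sc5d* and *Dhcr7*, all 6 called by limma (4.5% of all genes were called lower there), with -0.38 for *Fdft1* (0.0544) and -0.31 for *Hsd17b7* (0.0518). In series 2 alone it was -1.95 for *Sqle* (adjusted p = 0.0889), -1.29 for *Nsdhl*, -1.27 for *Cyp51*, -1.22 for *Lss* and -1.20 for *Hsd17b7*. None of the 9 enzymes was called there, and none of the 10835 genes was, although 8 enzymes and 2019 genes had an unadjusted p under 0.05, all 8 enzymes and 16.5% of all genes tested in the lower direction. The difference between the series was tested by the interaction term of limma, and no enzyme passed. It was largest for *Hsd17b7* (-0.89, series 2 minus series 1, 95% interval -1.70 to -0.08, unadjusted p = 0.0330, adjusted p = 0.641), followed by *Sqle* (-0.73, unadjusted p = 0.110, adjusted p = 0.721). *Cyp51* also had an unadjusted p under 0.05 (-0.64, unadjusted p = 0.0498, adjusted p = 0.649). The term was positive for *Ebp* alone (0.19). Over all genes none was called and 833 had an unadjusted p under 0.05. With the series as a term, 8 enzymes were called lower, *Fdft1* among them (adjusted p = 0.0378), as were 9.52% of all genes tested.

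**Figure D4:**
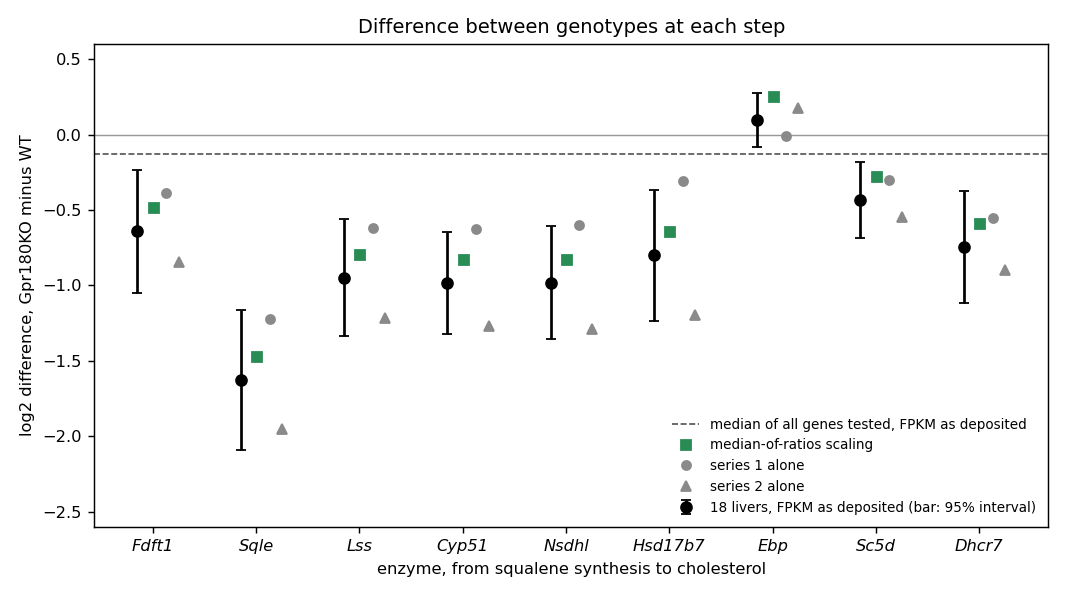
Log2 difference (*Gpr180*KO minus WT, vertical axis) of each enzyme, in the order of the steps. Black points with 95% intervals are the 18 livers on FPKM as deposited, green squares median-of-ratios scaling, grey circles series 1 alone and grey triangles series 2 alone. The dashed line is the median of all genes tested in the 18 livers on FPKM as deposited (-0.13). All marks of the 8 enzymes other than *Ebp* lie below it. Medians of the other fits, not drawn, were 0.02 (median-of-ratios scaling), -0.07 (series 1 alone) and -0.17 (series 2 alone).

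Of the other enzymes and partners of the steps after squalene that are reported here, 9 were tested. By limma 2 were called lower and none higher, against 5 and 0 at an unadjusted p under 0.05, with a median log2 difference of -0.27. Over all genes tested 4.28% were called lower, and 19.6% were lower at that unadjusted p. *Msmo1* (listed as *Sc4mol*), the oxidase that starts each removal of a methyl group next to *Nsdhl* and *Hsd17b7*, fell from 111 ± 41.8 to 60.6 ± 8.49 FPKM (-0.79, adjusted p = 0.0290). *Erg28* (listed as *0610007P14Rik*), a scaffold of these enzymes, fell from 76.7 ± 21.1 to 51.0 ± 5.09 FPKM (-0.55, adjusted p = 0.0278). *Tm7sf2*, a sterol reductase, was 74.2 ± 13.7 and 66.1 ± 18.3 FPKM (-0.18, adjusted p = 0.441). The electron donors *Por*, *Cyb5a*, *Cyb5b* and *Cyb5r3* lay between -0.31 and -0.11 and were not called, nor were *Lbr* (-0.40) and *Sec14l2* (0.16). With median-of-ratios scaling none of the 9 was called, and 3 were lower and 1 higher at an unadjusted p under 0.05, against 8.11% and 9.85% of all genes.

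Upstream of squalene, 5 of the 8 mevalonate enzymes reported here were called lower and none higher, with a median log2 difference of -0.90. Over all genes tested 4.28% were called lower and 0.452% higher, and 1.36% were called lower with median-of-ratios scaling. *Hmgcs1* fell from 215 ± 75.2 to 96.9 ± 24.1 FPKM (-1.10, adjusted p = 0.0132). *Idi1*, the isomerase of the isoprenoid units, fell from 101 ± 43.6 to 41.6 ± 5.89 FPKM (-1.17, adjusted p = 0.00677). *Pmvk* (-0.83, adjusted p = 0.0162), *Mvd* (-1.25, 0.0464) and *Fdps* (-0.98, 0.0446) fell too, and *Mvk* (-0.62, 0.0631), *Acat2* (-0.18, 0.377) and *Ggps1* (-0.24, 0.409) were not called. With median-of-ratios scaling 2 were called, *Hmgcs1* (-0.95, adjusted p = 0.0243) and *Idi1* (-1.02, 0.0210). As with the squalene enzymes, WThfd134 was the lowest WT liver in the sum of the 8, at 359 FPKM against a WT median of 805, and WThfd133 was the highest at 1127.

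Of 7 genes that control SREBP, 1 was called lower, *Srebf2*, which encodes SREBP2. It was 14.1 ± 1.46 FPKM in WT and 9.93 ± 1.83 in *Gpr180*KO livers (-0.51, adjusted p = 0.0159), and was called under median-of-ratios scaling too (-0.36, 0.0375). *Srebf1* was 69.3 ± 13.99 and 86.3 ± 16.002 FPKM (0.32, adjusted p = 0.138), and with median-of-ratios scaling it was called higher (0.47, 0.0459). *Insig1*, which retains SREBP in the membrane and is itself its target, was 176 ± 34.1 and 131 ± 19.8 FPKM (-0.41, adjusted p = 0.0533). *Scap*, *Insig2*, *Mbtps1* and *Mbtps2* were not called. At an unadjusted p under 0.05 by limma, 4 of the 7 were lower and 1 higher, against 19.6% and 2.54% of all genes tested. With median-of-ratios scaling 2 were lower and 1 higher, against 8.11% and 9.85%. By the adjusted p, 146 of the 10835 genes were called higher under that scaling. Of 5 tested genes of sterol uptake and transport (*Stard4*, *Mylip*, *Npc1*, *Soat1* and *Soat2*), none was called by limma, and 3 were lower at an unadjusted p under 0.05, with a median log2 difference of -0.38. Over all genes tested 4.28% were called lower, and 19.6% were lower at that unadjusted p. *Npc1l1* was under the minimum of 1 FPKM.

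**Figure D5:**
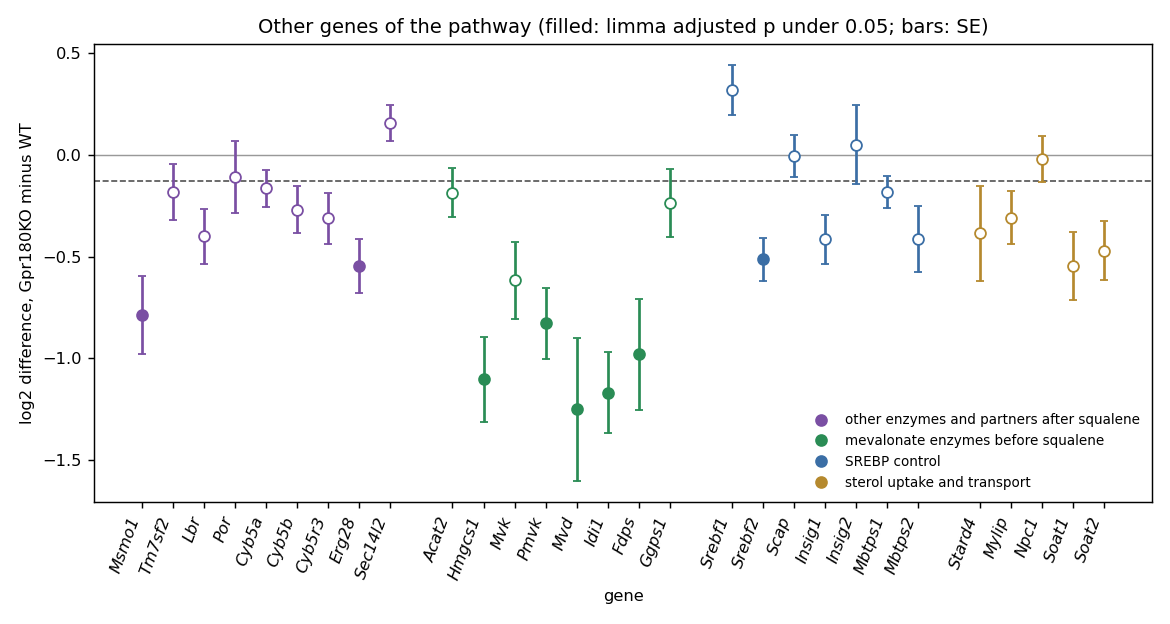
Log2 difference (*Gpr180*KO minus WT, vertical axis, with its SE) of the other pathway genes, grouped by role and coloured as in the legend. Filled points passed the adjusted p of 0.05 and open ones did not. The dashed line is the median of all genes tested (-0.13), and the mevalonate enzymes hold 5 of the 8 filled points.

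Genes with an order of livers like that of the enzymes were found by ranking the livers within each genotype on the mean log2 level of the 9 enzymes and on each other gene. The mean absolute difference of ranks over the 18 livers was 0.444 for *Ttc7*, 0.667 for *C77080* and for *Mmab*, and 0.778 for *Hectd3* and for *P2ry2*, against a median of 2.889 over all genes. Another 4 genes tied with the last pair, and *Hectd3* and *P2ry2* were taken by alphabet. Of the enzymes, *Dhcr7* was nearest to the mean of the 9 (0.556) and *Ebp* farthest (2.778). Each enzyme is part of that mean, so these values cannot be set against those of the other genes. None of the 5 genes was called between genotypes. *P2ry2*, for example, was 4.94 ± 0.689 FPKM in WT and 3.79 ± 0.705 in *Gpr180*KO livers (-0.38, adjusted p = 0.0510), and *Mmab*, an enzyme of cobalamin metabolism, was 12.1 ± 2.73 and 9.14 ± 1.33 FPKM (-0.37, 0.105).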

How the data were processed

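Liver poly(A) RNA of 18 male mice was sequenced with 1 library per mouse, as single reads from TruSeq libraries. Per the labels and the study's methods, the authors aligned reads to mm10 (GRCm38) with the TopHat Alignment application, and for each mouse they deposited FPKM per gene entry. The FPKM were an output of that application, and the gene annotation behind them is not given in the sources used here. Each table had 23847 entries. FPKM of entries with the same symbol were summed, which gave 23352 symbols, and 24 genes with a failed estimate (190 values) were dropped. The study's methods give reads per sample as one approximate range. The tables hold no count per library or gene, so only relative depth was read, from genes of low level. Genotype was taken from the labels, and series from the style of the titles. Nothing states whether mice shared litters or cages.

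The 10835 genes with a mean of at least 1 FPKM entered limma 3.58.1 (R 4.3.3) as log2(FPKM + 0.1), with lmFit and a trended eBayes, and p-values were adjusted by Benjamini-Hochberg over all of them, with a threshold of 0.05. Adjusted p-values in the text are from this fit unless another test is named, and on this scale the change of a low gene is understated. Ratios were taken on FPKM + 0.1 and tested by exact permutation in Python 3.11.15. The steps were tested on simulated data. The enzymes, the pathway and marker lists and the tests were chosen with earlier results of these data known. The genes named are the 9 enzymes, *Gpr180*, the pathway and marker lists, and the first 5 other genes by likeness of their order of livers to that of the enzymes, ties by symbol. Some genes of the pathway lists are not reported here. Promoter windows are those of RefSeq for GRCm38.p6. The alternatives were pseudocounts of 1 and 0.01, a minimum of 5 FPKM or none, median-of-ratios and TPM scaling, the series as a term, each series alone, robust eBayes, weights per library and leaving out each liver, and for ratios permutation within each series. The combination of median-of-ratios scaling and the series term was added after seeing the data.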

Additional observations from a re-analysis of the deposited data

Results flagged for a closer look

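Of 34 groups of 9 livers, one for each enzyme or ratio in each genotype, 10 held a liver whose gap to its neighbour was large for the range of the group on the log2 scale (Dixon's ratio above 0.493, a level that chance alone passes in about 5% of groups). All 10 were WThfd134 or KOhfd51, and the groups are not independent, since the enzymes share their livers.

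WThfd134 was far below the other WT livers for *Fdft1* (24.4 FPKM), *Lss* (11.0), *Sc5d* (213) and *Dhcr7* (18.4), and its ratio of *Dhcr7* to *Sc5d* was 0.0867. KOhfd51, the library with the highest sum of FPKM, was far below the other *Gpr180*KO livers for *Hsd17b7* (6.54 FPKM) and far above them for *Ebp* (165 FPKM). Its ratios set it apart as well, with 0.241 for *Hsd17b7* to *Nsdhl*, 24.9 for *Ebp* to *Hsd17b7* and 1.16 for *Sc5d* to *Ebp*. Without WThfd134 the median log2 difference of the 9 enzymes was -0.92, and without KOhfd51 it was -0.75, against -0.80 with all 18 livers.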

How the results depend on the processing

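The count of 7 enzymes called lower became 4 with median-of-ratios scaling and 0 with series 2 alone (5 against 5), and lay between 4 and 8 when each liver was left out. The count of enzymes called higher was 0 under every alternative run. The median log2 difference of -0.80 was -1.20 with series 2 alone, and -0.92 to -0.71 with a liver left out. *Ebp* was -0.0092 with series 1 alone. The number of all genes called, 513, was 238 with a minimum of 5 FPKM, 1153 with the series as a term, 293 with median-of-ratios scaling, 0 with series 2 alone, 1331 with weights per library and 132 to 922 with a liver left out. With series 1 alone, where 4 against 4 allows no p below 0.0286, no ratio passed after adjustment (0.0571 for the lowest): -0.84 for *Sqle* to *Fdft1*, 0.60 for *Lss* to *Sqle*, 0.30 for *Ebp* to *Hsd17b7* and -0.29 for *Sc5d* to *Ebp*. *Sc5d* to *Ebp* was -0.72 in series 2 alone (adjusted exact p = 0.0635). *Dhcr7* to *Sc5d*, -0.31, passed when livers were permuted within each series (adjusted exact p = 0.0426), and lay at -0.37 to -0.25 with a liver left out. Over the same fits *Hsd17b7* to *Nsdhl* lay at 0.14 to 0.32, *Cyp51* to *Lss* at -0.075 to 0.017 and *Nsdhl* to *Cyp51* at -0.029 to 0.046. *Nsdhl* to *Cyp51* was -0.0010 with a pseudocount of 1 and -0.021 with series 2 alone. The causes were not tested. *Sqle*, *Lss*, *Cyp51* and *Nsdhl* lost their call in series 2 alone and under no other alternative run. Other than with a liver left out, *Sc5d* lost its call under 6 alternatives, *Hsd17b7* under 4 and *Dhcr7* under 2, and *Fdft1* gained one under 3. Read counts are not in the tables, so counting error could not be set apart from the spread between mice.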
